A study of Homo sapiens with 12 samples.

Results

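The genes described here serve miRNA biogenesis and export: DROSHA, DGCR8, XPO5, RAN, TARBP2, PRKRA, DDX5, DDX17 and MOV10. They were chosen by name, and all of their probe sets that list a single gene symbol were taken from the deposited arrays. That gave 18 probe sets of 8 genes, out of 41091 such probe sets of 19775 genes in all. DGCR8 had none, because each of its 4 probe sets also lists a miRNA gene, and 1 of the probe sets of DDX5 was left out for the same kind of double listing. The count of probe sets per gene was 5 for DDX17, 3 for XPO5, 2 each for RAN, TARBP2, PRKRA and MOV10, and 1 each for DROSHA and DDX5.

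Primary miRNA transcripts are cut in the nucleus by the Microprocessor, in which DROSHA is the RNase III enzyme and DGCR8 its RNA-binding partner. The DEAD box helicases DDX5 and DDX17 associate with it. Exportin-5, encoded by XPO5, carries the hairpin precursor to the cytoplasm with the GTPase RAN. There Dicer and its double-stranded RNA-binding partners TARBP2 (also called TRBP) and PRKRA (also called PACT) make the mature miRNA, which an Argonaute protein such as AGO2 holds. MOV10 is an RNA helicase found with Argonaute proteins.

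The cells were Jurkat, a line from a human T-cell leukaemia, transduced with a miR-21 construct or with the control vector that matches it. From each, RNA was measured after an immunoprecipitation (IP) of AGO2, after a control IP with IgG, and in the lysate as Total RNA. Each of the 6 groups of fraction and construct had 2 replicates, 12 Affymetrix arrays in all, and the labels do not say whether replicates were separate cultures, so p-values measure only the spread between these samples, which may be technical. The array was labelled from 100 ng of IP RNA but from 1 ug of Total RNA, so the amount labelled cannot be told apart from IP against Total RNA. All values are of mRNA on the array and say nothing of the proteins, and in an IP a value is a level relative to the rest of the RNA recovered. In such bulk RNA, fewer expressing cells and less RNA per cell cannot be told apart.

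The construct encodes miR-21, whose precursor passes through this pathway, and its mature sequence is shown first. After it stand mature miRNAs from some genes within DGCR8 and DDX5, because these miRNA genes are listed on the probe sets that were left out. The members were not searched for other miRNA genes. The sequences are from RefSeq (GRCh38.p14), written 5′ to 3′, with the seed, bases 2 to 8, in capitals. None of the 6 seeds was shared.
hsa-miR-21-5p (chr17:59841273-59841294, plus strand): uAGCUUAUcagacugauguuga
hsa-miR-1306-5p (within DGCR8, chr22:20086072-20086093, plus strand): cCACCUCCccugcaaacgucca
hsa-miR-1306-3p (within DGCR8, chr22:20086112-20086129, plus strand): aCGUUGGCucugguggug
hsa-miR-3064-5p (within DDX5, chr17:64500817-64500837, minus strand): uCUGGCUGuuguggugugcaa
hsa-miR-3064-3p (within DDX5, chr17:64500775-64500797, minus strand): uUGCCACAcugcaacaccuuaca
hsa-miR-5047 (within DDX5, chr17:64501230-64501250, minus strand): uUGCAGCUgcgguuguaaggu

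The arrays stood apart by replicate number. Array means were 4.39 to 4.41 in replicate 1 and 5.26 to 5.27 in replicate 2, on the log2 scale of RMA, the summary that gives 1 value per probe set. In replicate 2, arrays of the same construct were nearly alike between AGO2 IP and IgG IP. Their correlation was 0.988 for the miR-21 construct and 0.996 for the control vector. Correlations and SDs between arrays were taken over the 23123 single-symbol probe sets that passed the filter given below. The SD of the difference between them was 0.342 and 0.195, against 0.764 and 0.821 for the same pairs in replicate 1. The 2 IgG IP arrays of replicate 2, which share an antibody by their labels, differed with an SD of 0.619. Whether these 4 IP arrays hold the fraction and construct on their labels was not tested, so each replicate 2 value of AGO2 IP or IgG IP is that of the array so labelled. The 3′ minus 5′ signal of ACTB, a measure of RNA integrity and labelling, ran from 1.97 to 4.001 in AGO2 IP, from 2.08 to 3.48 in IgG IP and from 1.35 to 3.53 in Total RNA. The highest belonged to the control vector AGO2 IP array of replicate 1. All 11 T cell markers lay at or above the filter, as did 2 of 5 B cell, 1 of 5 monocyte, 1 of 3 erythroid and 2 of 6 epithelial markers that were measured. The summed T cell marker level, on the log2 scale, was 13.1 to 13.8 in AGO2 IP, 13.1 to 13.9 in IgG IP and 13.3 to 14.3 in Total RNA. The part of these differences in the results was not tested.

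Of the 18 probe sets, 17 had a mean over the 12 arrays of at least 4.02, the median of the non-control probe sets, and these were tested among 23123. The test was limma with 6 group means, and a call was an adjusted p (Benjamini-Hochberg) under 0.05. Without a term for the replicate number it called no member in any of 8 comparisons, nor any other probe set (0% of all), and no member had an unadjusted p under 0.05. Over all probe sets 1848 had such a p in AGO2 IP against Total RNA, 44 in AGO2 IP against IgG IP and 703 in IgG IP against Total RNA. Same-numbered arrays deviated together, so values with the replicate number as a block are given throughout and named as such, and the same comparisons were also made within each replicate number.

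XPO5, TARBP2 and MOV10 shared 1 pattern in 6 of their 7 probe sets. In replicate 1 they were higher in both AGO2 IP arrays than in the IgG IP and Total RNA arrays. In replicate 2 both IP arrays labelled miR-21 exceeded both Total RNA arrays, and both IP arrays labelled control vector lay below the miR-21 ones, whichever antibody was named. For 5 of the 6 the control vector IP arrays also lay below both Total RNA arrays, while the AGO2 IP one of MOV10 233917_s_at was level with a Total RNA array. In the sentences that follow, each pair of values gives the miR-21 construct and then the control vector.

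TARBP2, the Dicer partner, showed it most clearly with its probe set 203677_s_at. Its log2 values in replicate 1 were 9.21 and 9.21 in AGO2 IP and 7.59 and 7.60 in IgG IP, against 7.70 and 7.51 in Total RNA. In replicate 2 they were 9.55 and 7.66 in AGO2 IP and 9.72 and 7.67 in IgG IP, against 8.55 and 8.72 in Total RNA. The AGO2 IP arrays of replicate 1 thus stood above the other 4 of that replicate without overlap, while in replicate 2 the Total RNA arrays lay between the IP arrays of the 2 constructs. AGO2 IP minus IgG IP was 1.62 in replicate 1 (limma within the replicate, adjusted p = 0.00409) and -0.09 in replicate 2 (adjusted p = 1.00). The mean of both was 0.76 ± 0.49 (SE with the replicate block, adjusted p = 0.881).

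XPO5, the export carrier, gave the same order with each of its 3 probe sets. For 223055_s_at the values of replicate 1 were 7.87 and 7.91 in AGO2 IP and 6.38 and 6.09 in IgG IP, against 6.93 and 6.74 in Total RNA. In replicate 2 the same probe set had 8.12 and 6.33 in AGO2 IP and 8.59 and 6.39 in IgG IP, against 6.97 and 7.17 in Total RNA. Both IP arrays of the miR-21 construct were the highest of replicate 2, and both of the control vector were the lowest. Probe set 223056_s_at had 9.45 and 9.40 in AGO2 IP and 8.19 and 8.18 in IgG IP, against 8.51 and 8.43 in Total RNA in replicate 1. Replicate 2 gave 9.61 and 7.69 in AGO2 IP and 9.75 and 7.82 in IgG IP, against 9.36 and 9.45 in Total RNA. Its AGO2 IP arrays did not overlap the rest in replicate 1, and only the control vector IP arrays were low in replicate 2. The values of 223057_s_at in replicate 1 were 8.16 and 7.32 in AGO2 IP and 6.95 and 6.92 in IgG IP, against 7.06 and 7.04 in Total RNA. In replicate 2 they were 7.66 and 6.08 in AGO2 IP and 7.97 and 6.20 in IgG IP, against 7.18 and 6.94 in Total RNA. This was the XPO5 probe set with the widest gap between the constructs in the AGO2 IP of replicate 1, and its lower AGO2 IP array still exceeded the 4 others there. Within replicate 1, AGO2 IP exceeded IgG IP by 1.66 for 223055_s_at (limma, adjusted p = 0.00432) and by 1.24 for 223056_s_at (adjusted p = 0.00921). The 0.80 of 223057_s_at did not pass (adjusted p = 0.0877).

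MOV10, the helicase, followed with 223849_s_at. Its values in replicate 1 were 8.47 and 8.04 in AGO2 IP and 6.85 and 6.69 in IgG IP, against 6.92 and 6.62 in Total RNA. In replicate 2 they were 7.70 and 6.08 in AGO2 IP and 8.48 and 6.16 in IgG IP, against 7.10 and 7.45 in Total RNA. The AGO2 IP arrays did not overlap the others in replicate 1, and the control vector IP arrays were the lowest of replicate 2. AGO2 IP exceeded IgG IP by 1.49 in replicate 1 (limma within the replicate, adjusted p = 0.00577), and the difference was -0.43 in replicate 2. The second MOV10 probe set, 233917_s_at, had 5.79 and 5.02 in AGO2 IP and 4.91 and 4.78 in IgG IP, against 4.69 and 4.48 in Total RNA in replicate 1. In replicate 2 its values were 5.58 and 5.13 in AGO2 IP and 5.61 and 4.89 in IgG IP, against 5.13 and 5.35 in Total RNA. Its AGO2 IP arrays were again the highest of replicate 1, and its miR-21 IP arrays the highest of replicate 2, at a smaller span. Its AGO2 IP minus IgG IP of 0.56 in replicate 1 did not pass (adjusted p = 0.136).

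**Figure D1:**
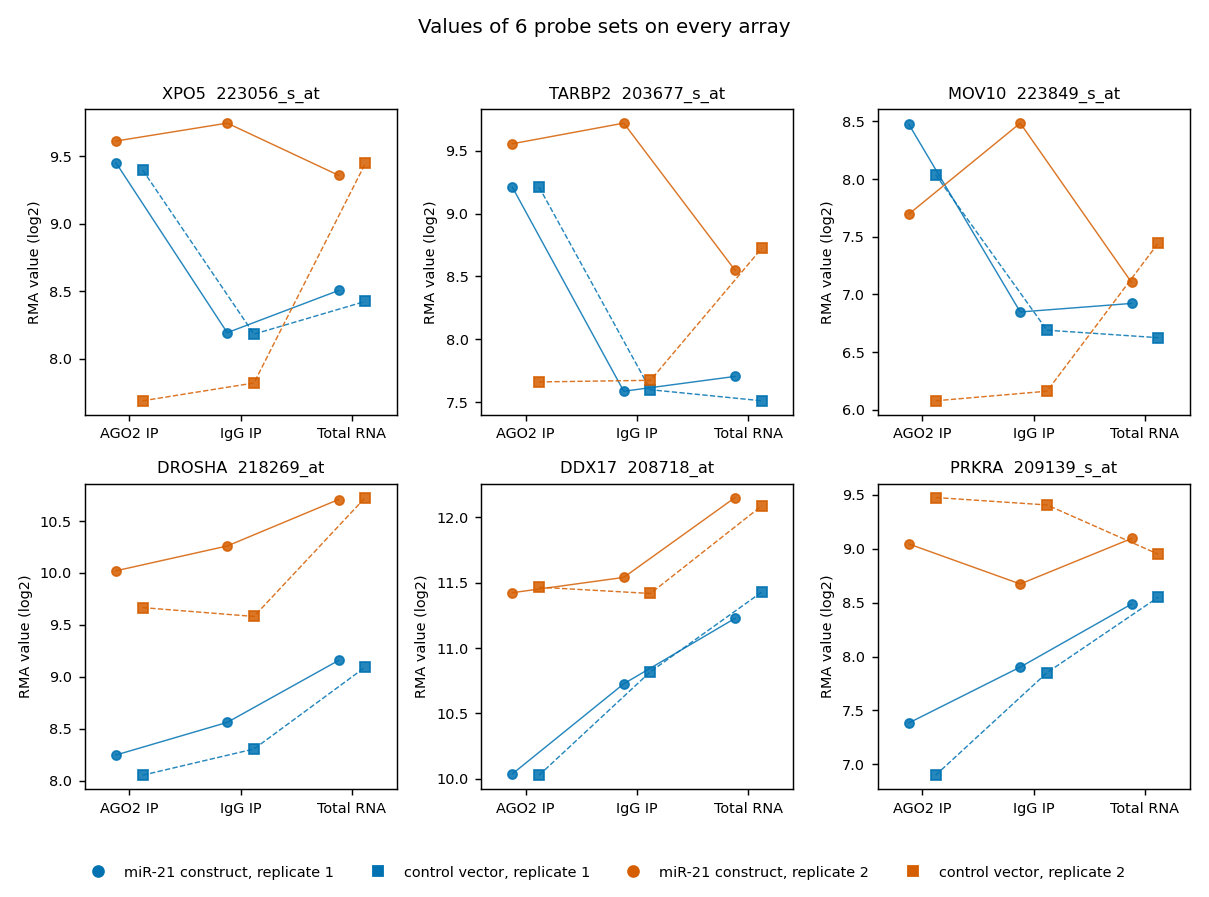
RMA values (log2, vertical axis) of 6 probe sets by fraction on every array, where each point is 1 array, colour gives the replicate number, shape the construct, and lines join the fractions of 1 construct and replicate. XPO5, TARBP2 and MOV10 (upper row) are high in AGO2 IP of replicate 1 and in both miR-21 IPs of replicate 2, and DROSHA and DDX17 208718_at (lower row) are highest in Total RNA within each replicate.

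The 3 probe sets of XPO5, TARBP2 203677_s_at and MOV10 223849_s_at moved together over the 12 arrays once the mean of each replicate number was subtracted, with Pearson correlations of 0.884 to 0.973 over 10 pairs. MOV10 233917_s_at correlated less closely with these 5, at 0.691 to 0.847. The arrays share their labelling and normalization, so the correlations are a description. The genes most like them on the array, among 12823 others, were VPS33B (0.994) and GABARAP (0.991) for XPO5, PKMYT1 (0.995) and ENTPD6 (0.993) for TARBP2, and CDC34 (0.983) and ARID3B (0.980) for MOV10. The second probe set of TARBP2, 239389_at, did not share the pattern. It ran from 4.26 to 4.90 in AGO2 IP, from 4.44 to 4.66 in IgG IP and from 4.21 to 4.42 in Total RNA.

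Leaving out 2 arrays of replicate 2, the AGO2 IP of the control vector and the IgG IP of the miR-21 construct, changed the calls of this group. In limma with the replicate block, AGO2 IP then exceeded IgG IP by 1.65 ± 0.21 for XPO5 223055_s_at (SE, adjusted p = 0.0197) and by 1.69 ± 0.28 for TARBP2 203677_s_at (adjusted p = 0.0306). XPO5 223056_s_at at 1.37 ± 0.33 (adjusted p = 0.0673) and MOV10 223849_s_at at 1.43 ± 0.35 (adjusted p = 0.0743) did not pass. That is 2 of 17 member probe sets called higher and 0 lower, where 3.64% of all were called higher and 0.77% lower. Against Total RNA, XPO5 223055_s_at (1.06 ± 0.19, adjusted p = 0.0130) and TARBP2 203677_s_at (1.33 ± 0.27, adjusted p = 0.0175) were then called higher in AGO2 IP. DROSHA (-0.94) and DDX17 208718_at (-1.12) were called lower there, which makes 2 higher and 2 lower of 17, where 6.9% and 13% of all were, and DDX17 230180_at was not called (adjusted p = 0.0843). With all 12 arrays and the block, 0 members were called in AGO2 IP against IgG IP, as was 0% of all probe sets, although 1039 had an unadjusted p under 0.05. The 2 arrays were picked from the data, by how the IP arrays of replicate 2 resembled each other, so these calls are not independent support. That resemblance does not say which array of a pair to leave out. The IP arrays kept there were AGO2 IP with miR-21 and IgG IP with the control vector, so antibody and construct cannot be told apart. For TARBP2 203677_s_at these had 9.55 and 7.67, while the AGO2 IP and IgG IP arrays left out had 7.66 and 9.72. The higher AGO2 IP in replicate 2 thus follows from the choice of arrays.

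DROSHA, the nuclear RNase, fell in AGO2 IP relative to Total RNA when the replicate number was a block. Its probe set 218269_at had 8.25 and 8.05 in AGO2 IP and 8.56 and 8.31 in IgG IP, against 9.16 and 9.10 in Total RNA in replicate 1. The replicate 2 values were 10.02 and 9.67 in AGO2 IP and 10.26 and 9.58 in IgG IP, against 10.71 and 10.73 in Total RNA. Within each replicate number all IP arrays, with either antibody, lay below both Total RNA arrays. AGO2 IP minus Total RNA was -0.92 ± 0.18 (SE with the replicate block, limma adjusted p = 0.0166), against an SE of 0.72 and an adjusted p of 1.00 without the block. IgG IP minus Total RNA was -0.74 ± 0.18 and did not pass (adjusted p = 0.0635), although it did without the filter on dim probe sets (adjusted p = 0.0386). AGO2 IP minus IgG IP was -0.18 ± 0.18 (adjusted p = 0.882). The call against Total RNA was kept in 8 of 12 fits that each left out 1 array. It was lost, with adjusted p of 0.0719 to 0.0811, without either miR-21 AGO2 IP array or either Total RNA array of replicate 2.

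DDX17, a helicase of the Microprocessor, fell in AGO2 IP relative to Total RNA by 2 of its 5 probe sets with the block. Probe set 208718_at had 10.04 and 10.03 in AGO2 IP and 10.73 and 10.82 in IgG IP, against 11.23 and 11.43 in Total RNA in replicate 1. For replicate 2 the values were 11.42 and 11.47 in AGO2 IP and 11.54 and 11.42 in IgG IP, against 12.15 and 12.09 in Total RNA. The AGO2 IP arrays were the lowest of replicate 1, whereas both kinds of IP were level with each other in replicate 2. Its AGO2 IP minus Total RNA was -0.99 ± 0.21 (SE with the replicate block, limma adjusted p = 0.0227), kept in 5 of 12 fits that left out 1 array. It was lost, at -0.84 to -1.11 with adjusted p of 0.0542 to 0.102, without any 1 of the Total RNA arrays, the AGO2 IP arrays of replicate 1 or the miR-21 AGO2 IP array of replicate 2. Probe set 230180_at had 3.41 and 3.29 in AGO2 IP and 3.62 and 3.56 in IgG IP, against 4.01 and 3.91 in Total RNA in replicate 1, where all of its values were dim. In replicate 2 it had 6.07 and 6.76 in AGO2 IP and 6.20 and 6.84 in IgG IP, against 8.98 and 9.004 in Total RNA. Total RNA was the highest in both, by a much larger margin in replicate 2. The difference was -1.59 ± 0.45 (adjusted p = 0.0469), -0.61 within replicate 1 and -2.58 within replicate 2, and the call was kept in 4 of 12 such fits. It was lost, at -1.17 to -1.90 with adjusted p of 0.0697 to 0.185, without any 1 of the AGO2 IP arrays, the control vector IgG IP arrays or the Total RNA arrays of replicate 2.

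Probe sets 208719_s_at and 208151_x_at of DDX17 ran the other way in replicate 2. Probe set 208719_s_at had 5.63 and 6.71 in AGO2 IP and 4.75 and 6.71 in IgG IP, against 3.57 and 3.87 in Total RNA there. In replicate 1 its values were 2.69 and 2.73 in AGO2 IP and 2.96 and 3.08 in IgG IP, against 2.90 and 2.95 in Total RNA. It was dim and nearly flat in replicate 1, and the IP arrays stood above Total RNA without overlap in replicate 2. Probe set 208151_x_at had 5.37 and 5.81 in AGO2 IP and 4.87 and 5.62 in IgG IP, against 3.39 and 3.64 in Total RNA in replicate 2. Its replicate 1 values were 4.02 and 4.20 in AGO2 IP and 4.21 and 4.20 in IgG IP, against 4.04 and 4.06 in Total RNA. As for 208719_s_at, its IP arrays stood above Total RNA without overlap in replicate 2. In the Total RNA arrays of replicate 2 both probe sets lay under the filter of 4.02, between percentiles 29.3 and 39.5 of their arrays. Their differences from Total RNA thus rest partly on dim values. Probe set 208719_s_at, with a mean of 4.05, exceeded the filter only on the IP arrays of replicate 2. It was thus tested through the arrays in which it was high. With the block, AGO2 IP minus Total RNA was 1.12 ± 0.55 for 208719_s_at (SE, limma adjusted p = 0.211). For 208151_x_at it was 1.07 ± 0.40 (limma adjusted p = 0.112), and neither passed. The fifth probe set, 213998_s_at, had 2.87 and 3.65 in AGO2 IP and 3.05 and 3.49 in IgG IP, against 3.92 and 4.26 in Total RNA in replicate 1. Replicate 2 gave 6.15 and 7.26 in AGO2 IP and 5.97 and 7.49 in IgG IP, against 7.24 and 7.25 in Total RNA. There the miR-21 IP arrays were the low ones, and its AGO2 IP minus Total RNA of -0.68 ± 0.22 with the block did not pass (adjusted p = 0.0723). The calls of DDX17 thus rest on 2 of its 5 probe sets.

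DDX5, the related helicase, had 1 usable probe set, 225886_at, which changed sides between replicates. It had 6.61 and 6.79 in AGO2 IP and 6.74 and 6.85 in IgG IP, against 7.45 and 7.42 in Total RNA in replicate 1. The replicate 2 values were 9.18 and 9.82 in AGO2 IP and 8.98 and 9.81 in IgG IP, against 8.07 and 7.85 in Total RNA. The IP arrays lay below Total RNA in replicate 1 and above it in replicate 2, without overlap in either. AGO2 IP minus Total RNA was -0.73 within replicate 1 (limma, adjusted p = 0.0265) and 1.54 within replicate 2 (adjusted p = 0.00910), and over both it was 0.40 ± 0.46 with the block (adjusted p = 0.614).

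**Figure D2:**
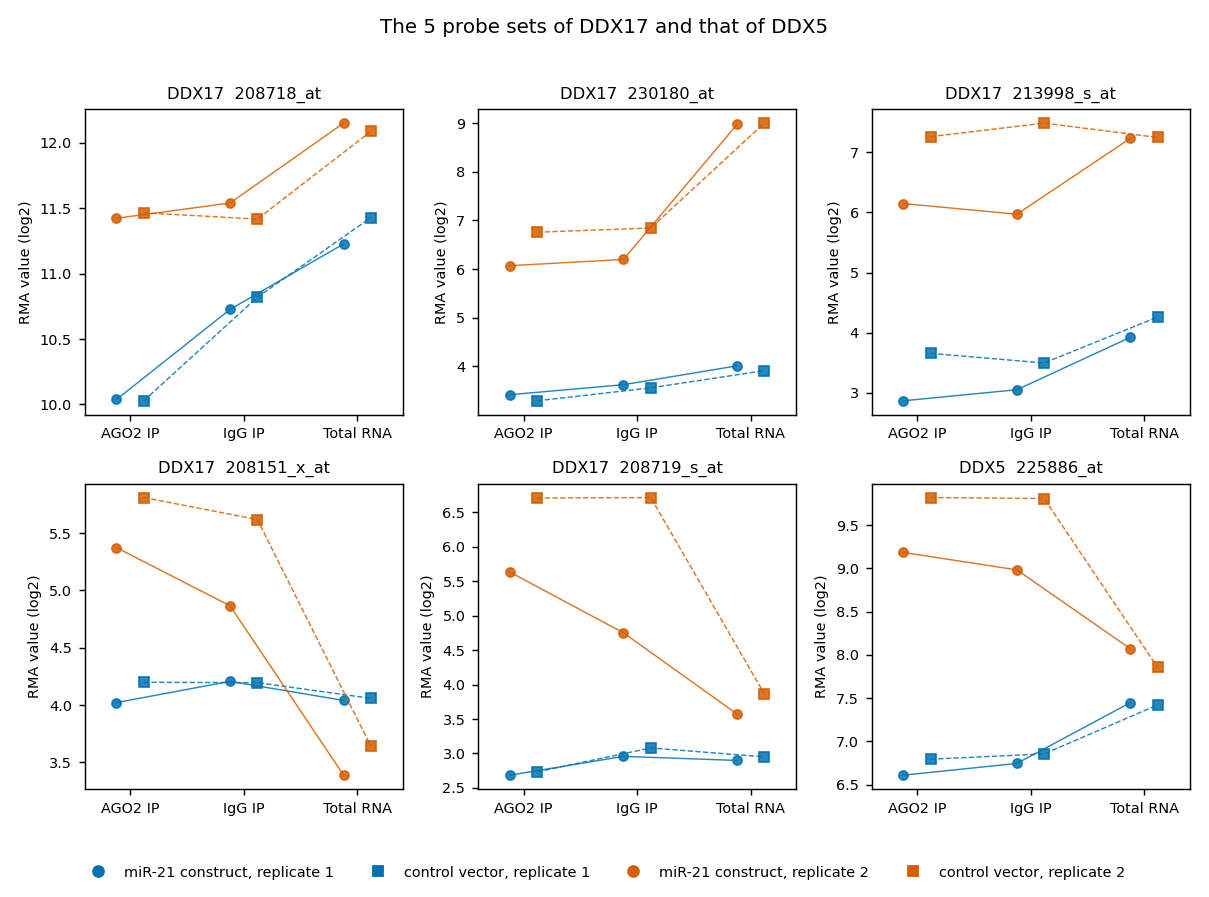
RMA values (log2) of the 5 DDX17 probe sets and of DDX5 225886_at by fraction, drawn 1 point per array with colour for replicate number and shape for construct. Total RNA is the highest fraction for 208718_at and 230180_at in both replicates, while for 208719_s_at, 208151_x_at and DDX5 it is the lowest in replicate 2.

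RAN, the GTPase that exportins bind with their cargo, had 2 probe sets that opposed each other. Probe set 200750_s_at had 11.59 and 11.46 in AGO2 IP and 12.27 and 12.40 in IgG IP, against 11.96 and 11.98 in Total RNA in replicate 1. For replicate 2 the values were 11.997 and 12.13 in AGO2 IP and 11.89 and 12.23 in IgG IP, against 12.77 and 12.81 in Total RNA. AGO2 IP was below Total RNA in both replicates. Probe set 200749_at had 10.15 and 10.09 in AGO2 IP and 9.31 and 9.58 in IgG IP, against 9.99 and 9.88 in Total RNA in replicate 1. In replicate 2 it had 11.74 and 12.03 in AGO2 IP and 11.84 and 11.94 in IgG IP, against 10.74 and 10.67 in Total RNA. By this one AGO2 IP was above Total RNA in both replicates. AGO2 IP minus Total RNA was -0.59 ± 0.25 for 200750_s_at (SE with the replicate block, limma adjusted p = 0.159) and 0.68 ± 0.33 for 200749_at (adjusted p = 0.203), and neither passed. After centring by replicate the 2 probe sets correlated at -0.865 over the 12 arrays.

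PRKRA, the other Dicer partner, was low in the AGO2 IP of replicate 1. Probe set 209139_s_at had 7.38 and 6.90 in AGO2 IP and 7.90 and 7.85 in IgG IP, against 8.49 and 8.55 in Total RNA in replicate 1. Replicate 2 gave 9.04 and 9.47 in AGO2 IP and 8.67 and 9.41 in IgG IP, against 9.10 and 8.95 in Total RNA, and the fractions overlapped. AGO2 IP minus Total RNA was -1.38 within replicate 1 (limma, adjusted p = 0.00728) and 0.24 within replicate 2 (adjusted p = 0.538). The second probe set, 237107_at, lay under the filter and was left out of the fits with it. It had 1.96 and 1.80 in AGO2 IP and 2.02 and 2.42 in IgG IP, against 3.80 and 4.24 in Total RNA in replicate 1. In replicate 2 its values were 3.28 and 4.03 in AGO2 IP and 3.37 and 3.83 in IgG IP, against 5.16 and 4.80 in Total RNA. Every IP array lay below both Total RNA arrays of its replicate. In a fit of all 41091 probe sets without the filter, with the block, AGO2 IP minus Total RNA was -1.73 ± 0.24 (SE, adjusted p = 0.00920) and IgG IP minus Total RNA was -1.59 ± 0.24 (adjusted p = 0.0173), where 5.74% and 1.71% of all were called lower. Both comparisons use the same Total RNA arrays. In replicate 1 the IP values of this probe set lay at percentiles 0.6 to 17.4 of their arrays. The size of its differences thus rests on very dim values.

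Set against all probe sets, the members' counts were as follows. With the replicate block, 3 of 17 member probe sets (17.6%) were called lower in AGO2 IP than in Total RNA and 0 higher, where 9.91% of all were called lower and 3.89% higher, 13.8% in all. The 3 belong to 2 genes. An unadjusted p under 0.05 occurred in 6 of the 17 and in 7010 of all 23123. The median difference of the 17 was 0.25, beside -0.05 over all probe sets, but with only the brightest probe set of each of the 8 genes it was -0.23, so its sign rests on the genes with several probe sets. In IgG IP against Total RNA 0 members were called, where 0.29% of all were called higher and 2.31% lower, 2.59% in all, and 5 members had an unadjusted p under 0.05, DROSHA and DDX17 208718_at, 230180_at, 213998_s_at and 208151_x_at, as did 4369 of all 23123. The median of the 17 was -0.04 there and that of the brightest probe set of each gene -0.25, beside -0.005 over all probe sets. In AGO2 IP against IgG IP the 2 medians were 0.06 and -0.09, beside -0.08 over all probe sets.

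Within replicate 1, 5 members were called higher and 6 lower in AGO2 IP than in Total RNA, where 9.79% and 22.6% of all were. In AGO2 IP against IgG IP of that replicate 4 were called higher and 2 lower, where 9.04% and 5.92% of all were. The 4 were the XPO5, TARBP2 and MOV10 probe sets with such calls above, and the 2 were RAN 200750_s_at at -0.81 (adjusted p = 0.0375) and DDX17 208718_at at -0.74 (adjusted p = 0.0436). In IgG IP against Total RNA of replicate 1, 0 were called, where 0.277% of all were called higher and 2.4% lower. Within replicate 2, 4 were called higher and 4 lower in AGO2 IP than in Total RNA, where 16.6% and 16.3% of all were. In IgG IP against Total RNA of replicate 2 the counts were 4 and 3, where 15.1% and 13.9% of all were called. In both comparisons the 4 higher were RAN 200749_at, DDX5 225886_at and the DDX17 probe sets 208719_s_at and 208151_x_at, the last 2 of which were dim in Total RNA. Of these, 208719_s_at passed the filter only through these same IP arrays, so its calls are not support. In AGO2 IP against IgG IP of replicate 2 no member was called, as was 0% of all, and the 17 differences ran only from -0.43 to 0.44.

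In both replicates alike, without overlap between the arrays of a replicate, 1 member was higher and 4 lower in AGO2 IP than in Total RNA, where 10.4% and 20.2% of all were. These were RAN 200749_at, and DROSHA, RAN 200750_s_at and DDX17 208718_at and 230180_at. Against IgG IP the counts were 0 and 0, where 1.32% and 3.36% of all were. In IgG IP against Total RNA 3 were higher and 3 lower, where 9.29% and 16.3% of all were. The 3 higher were TARBP2 239389_at and DDX17 208151_x_at and 208719_s_at, and the 3 lower were DROSHA and DDX17 208718_at and 230180_at.

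**Figure D3:**
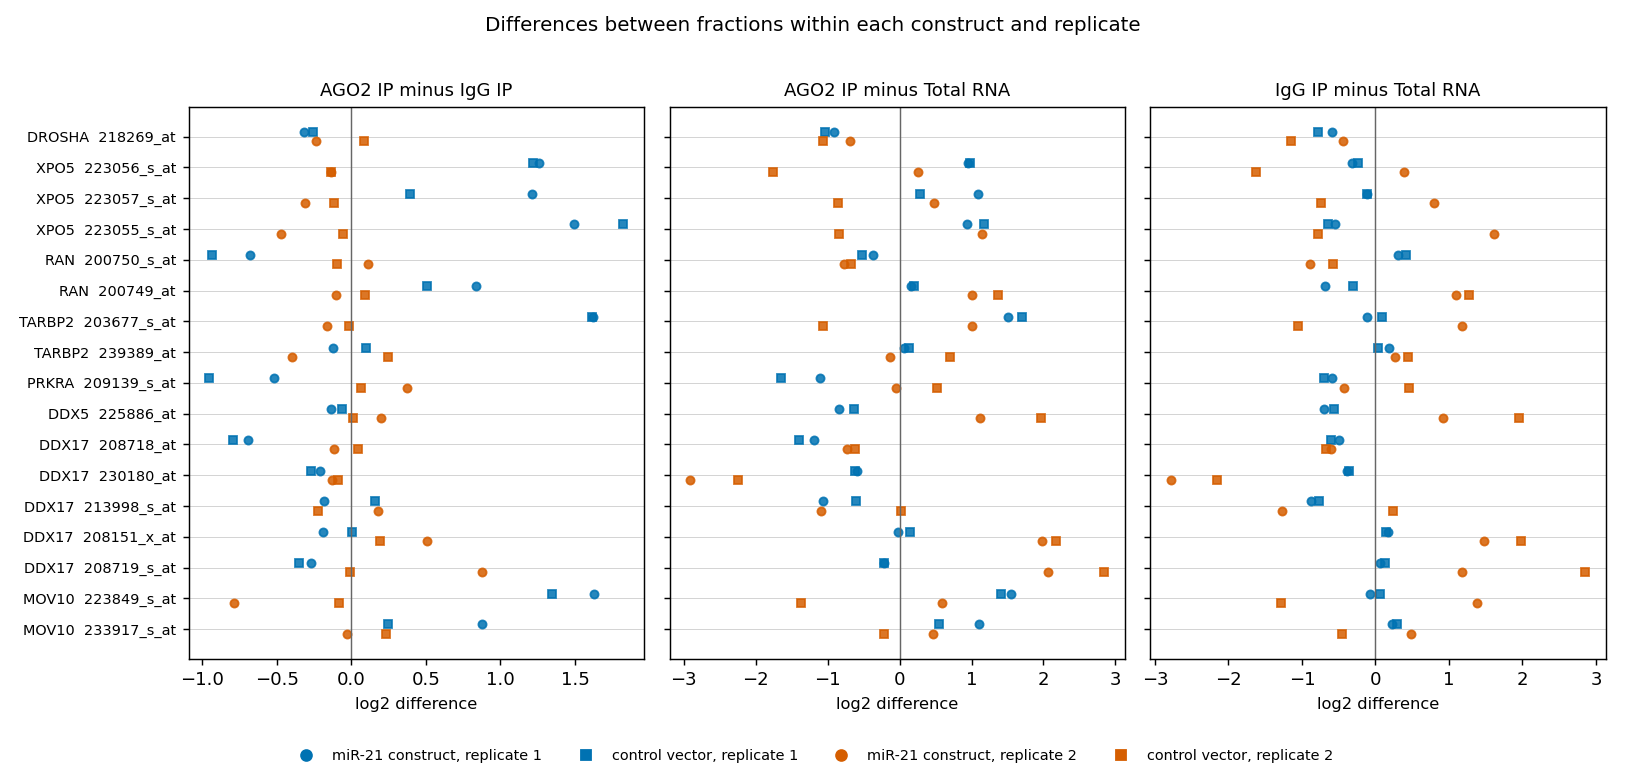
Log2 differences (horizontal axes) of the 17 tested probe sets for AGO2 IP minus IgG IP, AGO2 IP minus Total RNA and IgG IP minus Total RNA, 1 point per construct (shape) and replicate (colour), on axes of different span. In AGO2 IP minus IgG IP the replicate 1 points of XPO5, TARBP2 203677_s_at and MOV10 lie above 0, while the means of replicate 2 run from -0.43 to 0.44.

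The miR-21 construct was compared with the control vector in each fraction. In Total RNA the 17 differences ran from -0.34 to 0.30 in replicate 1 and from -0.34 to 0.24 in replicate 2, with a median over both of 0.001, beside 0.02 over all probe sets. No member was called in any fraction, with or without the block, as was 0% of all probe sets. With the block, 2 members had an unadjusted p under 0.05 in AGO2 IP, where 781 of all did. They were XPO5 223057_s_at (1.21 ± 0.47) and DDX17 213998_s_at (-0.95 ± 0.31). In IgG IP 1 did, DDX17 213998_s_at (-0.98 ± 0.31), where 225 of all did, and in Total RNA 0 members and 7 of all did.

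In the IPs of replicate 2, taken as labelled, the spread was wider. The miR-21 construct exceeded the control vector by over 1 on the log2 scale in both AGO2 IP and IgG IP for 5 of 17 member probe sets, where 4.29% of all did. These were the 3 of XPO5, TARBP2 203677_s_at and MOV10 223849_s_at, and the largest differences were 1.93 for XPO5 223056_s_at in AGO2 IP and 2.32 for MOV10 223849_s_at in IgG IP. The miR-21 construct was lower by over 1 in both IPs for 2, DDX17 213998_s_at and 208719_s_at, where 0.502% of all were. Both are of 1 gene. Probe set 208719_s_at passed the filter only through these same IP arrays, so its place in this count is not support. In replicate 1 no member exceeded 1 in both IPs, where 0.19% of all did. The interaction of construct with AGO2 IP against Total RNA, and with AGO2 IP against IgG IP, gave 0 calls of members and of all probe sets (0%) with or without the block, while 157 and 107 of all had an unadjusted p under 0.05 with it.

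**Figure D4:**
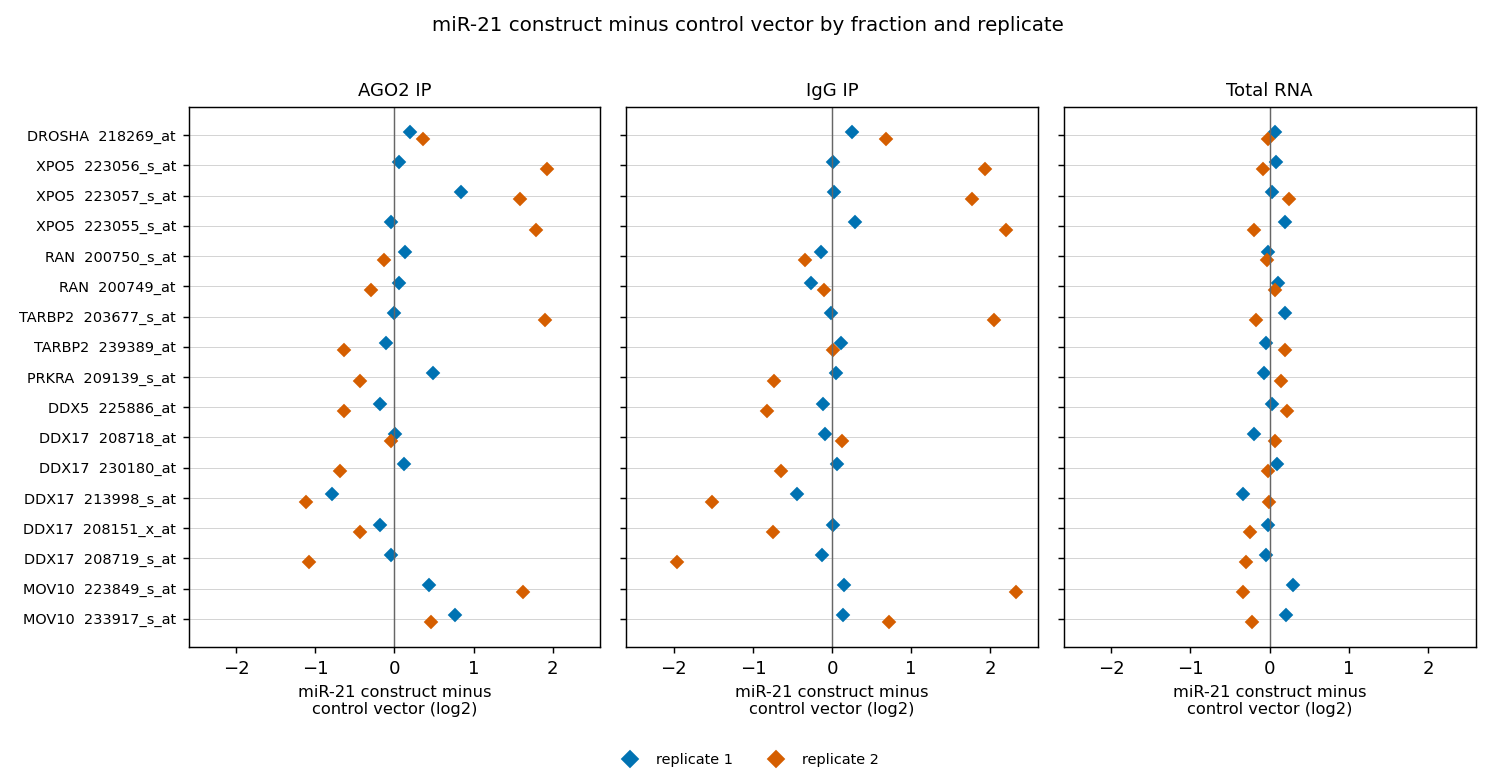
Log2 difference of the miR-21 construct minus the control vector for the 17 tested probe sets in AGO2 IP, IgG IP and Total RNA, 1 point per replicate, on 1 common scale. The replicate 2 points of XPO5, TARBP2 203677_s_at and MOV10 223849_s_at exceed 1 in both IPs, and all points in Total RNA lie between -0.34 and 0.30.

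The rest of the pathway was taken from 6 lists of genes, each gene by its brightest probe set. In AGO2 IP against Total RNA with the replicate block, 0 genes of any list were called higher. Over all probe sets 3.89% were called higher and 9.91% lower. Without the block 0 genes of any list were called in either direction. Whether the calls of list genes hold when 1 array is left out is not given here. Among 15 Microprocessor cofactors, 2 fell, ADAR, an RNA-editing enzyme (-1.34 ± 0.21, SE, limma adjusted p = 0.0107), and ILF2, a double-stranded RNA-binding partner (-0.86 ± 0.21, adjusted p = 0.0302), with a median of -0.09. Among 11 genes of the Ran cycle and export, the nucleoporins RANBP2 (-1.90 ± 0.28, adjusted p = 0.00889) and NUP153 (-1.06 ± 0.26, adjusted p = 0.0299) fell, with a median of -0.35. Among 11 genes of precursor tailing and turnover, SND1, a nuclease, and TUT7, a uridylyl transferase, fell by 1.38 and 0.92.

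Of 17 genes for Dicer, Argonautes and loading chaperones, 3 fell. They were STIP1, an HSP90 co-chaperone (-1.21), AGO2 itself (-0.81 ± 0.23, limma adjusted p = 0.0479 with the block) and FKBP4, another co-chaperone (-0.69), and the list's median was -0.30. Of 13 partners and relatives of MOV10, the helicases HELZ (-1.38) and AQR (-0.88), the decay factor UPF2 (-1.30) and the antiviral protein ZC3HAV1 (-1.19) fell, with a median of -0.15. Of 25 other DEAD box helicases, DDX41 (-1.68) and DDX24 (-0.73) fell, with a median of -0.33. In all lists the median of all probe sets stands beside these at -0.05, and 9.91% of all were called lower. In AGO2 IP against IgG IP, with all arrays and the block, 0 genes of these lists were called, as was 0% of all. In IgG IP against Total RNA with the block, 1 gene of the Ran cycle and export list was called lower. The other lists had 0 calls there, where 2.31% of all were called lower.

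DROSHA and DDX17 208718_at correlated at 0.867 over the 12 arrays after centring by replicate, while DROSHA and XPO5 223056_s_at correlated at 0.281 and DDX17 208718_at and TARBP2 203677_s_at at -0.515. The gene most like DROSHA was ANKRD17 (0.971), and that most like DDX17 was DFFA (0.984). For RAN it was PSMA2 (0.978), for PRKRA TASOR (0.982) and for DDX5 MIOS (0.987).

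The promoters of XPO5, TARBP2 and MOV10, and of DROSHA and DDX17, are printed because some of their probe sets moved together on the arrays. After centring by replicate, DDX17 correlated with DROSHA at 0.867 by 208718_at and 0.672 by 230180_at. By 213998_s_at, 208151_x_at and 208719_s_at it did so at 0.229, -0.735 and -0.694. Any link of the promoters to these patterns, which take in RNA recovered in an IP, was not tested. All 9 genes had a promoter in the RefSeq table (GRCh38.p14), and the 250 bases before the start, the one listed first where 3 were (TARBP2 and MOV10), are shown 5′ to 3′ on the gene's strand. Capitals mark a match, on either strand, to CCAAT (read as ATTGG on the other strand) or GGGCGG (read as CCGCCC), and overlapping matches run together. DROSHA held 3 CCAAT and 1 GGGCGG match, TARBP2 3 and 1, and XPO5 0 and 2, while DDX17 and MOV10 held none of these letters in the window. Of 27305 promoters of that length, 33.0% held CCAAT and 42.3% held GGGCGG. The letters TATAAA (in 11.1% of all), CCGGAAG (in 8.82%) and CACGTG (in 6.49%) were also searched on both strands and occurred in none of the 5. A match describes the letters alone.
XPO5 (chr6:43576039-43576288, minus strand): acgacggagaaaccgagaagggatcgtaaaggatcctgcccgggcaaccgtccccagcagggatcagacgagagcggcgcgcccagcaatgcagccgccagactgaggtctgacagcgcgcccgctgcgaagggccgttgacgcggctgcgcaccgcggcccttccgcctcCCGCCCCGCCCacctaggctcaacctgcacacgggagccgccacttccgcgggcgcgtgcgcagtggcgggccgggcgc
TARBP2 (chr12:53500673-53500922, plus strand): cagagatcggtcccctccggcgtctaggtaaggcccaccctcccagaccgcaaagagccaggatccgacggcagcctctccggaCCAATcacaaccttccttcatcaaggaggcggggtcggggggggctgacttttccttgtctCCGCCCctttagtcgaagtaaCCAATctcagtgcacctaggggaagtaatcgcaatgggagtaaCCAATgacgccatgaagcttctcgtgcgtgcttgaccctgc
MOV10 (chr1:112674189-112674438, plus strand): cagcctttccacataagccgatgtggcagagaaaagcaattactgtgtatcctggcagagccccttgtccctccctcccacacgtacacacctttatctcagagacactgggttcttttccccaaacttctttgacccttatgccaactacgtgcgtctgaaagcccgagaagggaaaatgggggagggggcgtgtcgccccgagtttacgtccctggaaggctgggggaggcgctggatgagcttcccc
DROSHA (chr5:31532094-31532343, minus strand): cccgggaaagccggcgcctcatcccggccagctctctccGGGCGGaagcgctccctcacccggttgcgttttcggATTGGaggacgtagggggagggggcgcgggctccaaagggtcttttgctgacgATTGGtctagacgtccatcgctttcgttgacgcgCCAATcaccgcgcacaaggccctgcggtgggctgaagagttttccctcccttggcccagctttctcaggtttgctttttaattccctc
DDX17 (chr22:38506312-38506561, minus strand): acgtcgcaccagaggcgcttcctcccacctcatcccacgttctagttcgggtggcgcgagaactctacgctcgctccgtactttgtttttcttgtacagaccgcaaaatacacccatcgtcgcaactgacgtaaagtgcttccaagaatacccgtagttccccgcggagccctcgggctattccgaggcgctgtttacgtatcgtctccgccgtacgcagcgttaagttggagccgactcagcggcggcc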

How the data were processed

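The deposited log2 values were made by the authors with RMA, per the submitters' processing notes, which corrects background, normalizes and summarises probes. Neither its version nor a joint normalization of the 12 arrays is stated (not given in the sources used here). Each array held 54675 probe sets, 62 of them controls. Genes were named from the platform annotation. Of 41091 probe sets with a single symbol, 41037 matched a current gene, and those with more than 1 symbol or with none were not used.

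Probe sets with a mean of at least 4.02 were fitted with limma 3.58.1 in R 4.3.3 with data.table (version 1.17.8), using 6 group means over all 12 arrays and 6 residual degrees of freedom, or 5 with the replicate number as a block. Within 1 replicate number, fraction and construct were additive terms over 6 arrays, with 2 residual degrees of freedom. P-values were adjusted by Benjamini-Hochberg over all 23123 probe sets. The labels number the replicates without saying what a number shares, and residuals around the group means correlated between same-numbered arrays at 0.429 to 0.875 in the 15 pairs of groups (median 0.605). The number of arrays limits the precision. SEs are those of limma. All member probe sets are named. In the 6 pathway lists, up to 4 genes each are named where called with the block, and likeness was ranked by Pearson correlation after centring by replicate number. Members and lists were chosen with earlier results of these data known. The fits were tested on simulated data. Normalization, filter, probe set choice and arrays left out were varied. Figures and motif searches used Python 3.11.15, pandas 2.3.3 and matplotlib 3.10.9.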

Additional observations from a re-analysis of the deposited data

Results flagged for a closer look

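TARBP2 239389_at, the second probe set of the Dicer partner, moved in opposite directions by construct in AGO2 IP minus IgG IP. The differences were -0.12 and -0.40 in replicates 1 and 2 of the miR-21 construct, and 0.10 and 0.25 in those of the control vector. The mean effect with the miR-21 construct minus that with the control vector was -0.435 on the log2 scale, and this interaction did not pass in limma with the replicate block (adjusted p = 1.00). The same kind of opposition between constructs occurred in 8% of all 23123 probe sets tested. The values of this probe set lay close to the filter, and the part of low signal in the result was not tested.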

How the results depend on the processing

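Counts of member probe sets called, 0 in every comparison without the replicate block, depended on that block. In AGO2 IP against Total RNA the block gave 3, DROSHA and DDX17 208718_at and 230180_at, and gave the same 3 with median centring, cyclic loess or quantile normalization. Without a filter it also gave 3, but with PRKRA 237107_at, whose IP values were very dim, in place of DDX17 230180_at. A stricter filter (mean of at least 6.31) or 1 probe set per gene gave 2. IgG IP against Total RNA gave 2 with the block and no filter, DROSHA and PRKRA 237107_at. Without the AGO2 IP array of the control vector and the IgG IP array of the miR-21 construct in replicate 2, the counts were 4 in AGO2 IP against Total RNA and 2 in AGO2 IP against IgG IP. Within replicate number 1 they were 11 and 6, and within replicate number 2 they were 8 in AGO2 IP against Total RNA and 7 in IgG IP against Total RNA. Leaving out 1 array at a time with the block gave 0 to 4 in AGO2 IP against Total RNA, the 4 without the control vector AGO2 IP array of replicate 2, and 0 to 1 in IgG IP against Total RNA. Without the block all such fits gave 0. DDX5 225886_at turned to -0.734 in AGO2 IP minus Total RNA within replicate 1. The cause of these changes was not tested.

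Over all probe sets, 28.2% of calls in AGO2 IP against Total RNA were higher with the block (900 higher, 2291 lower), against 38.8% with cyclic loess (933 and 1469) and 38.6% with quantile normalization (1095 and 1741). In IgG IP against Total RNA the share was 11.2%, against 23.3% with quantile normalization. The call of DROSHA held in 6 of 6 settings with the block (adjusted p 0.0120 to 0.0391), that of DDX17 208718_at in 6 of 6 (0.0186 to 0.0275) and that of DDX17 230180_at in 3 of 4 (0.0417 to 0.0685). With the filter at 4.02 and all arrays, the replicate block changed no other call of a member.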
